A study of Mus musculus with 18 samples.

Results

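The cell cycle and DNA replication genes described here are 43 of the 31665 genes with an annotated exon length in mouse quadriceps RNA-seq, taken by gene symbol from every library. Of these, 17 act in G1/S and S phase (cyclin E and E2F regulators, the licensing machinery and helicase, fork factors, nucleotide supply) and 26 act in G2 and mitosis (the Cdk1 module, mitotic kinases, the spindle checkpoint, kinetochores, the spindle and cytokinesis). The study compared dyW mice, a Lama2 knock-out (strain B6.129S1(Cg)-Lama2tm1Eeng/J, called hemizygous in the labels) that models the muscular dystrophy of laminin alpha 2 deficiency, with healthy C57BL/6J mice. One cohort of 7 libraries, with no treatment in its labels, holds 3 untreated WT and 4 untreated dyW muscles with an age label of 5 weeks. The other, of 11 libraries, holds 3 WT and 3 dyW mice given phosphate-buffered saline (PBS), and 2 WT and 3 dyW mice given TD139, an inhibitor of galectin-3. In that cohort the age label is 3 weeks, while the protocol gives collection at 5 weeks for every sample, and dose and route are not given in the sources used here. Both sexes occur in each of the 6 groups, and each library is a separate mouse by its animal number. The dyW allele is present in every tissue and throughout life, so that the groups compare dystrophic with healthy muscle and not an acute loss of laminin alpha 2.

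A cell copies its DNA in S phase and divides it in M phase. Cyclin E and E2F factors open S phase, Cdc6 and Cdt1 load the Mcm2-7 helicase on origins, and ribonucleotide reductase and thymidylate synthase supply the deoxynucleotides. Cdk1 with cyclin B then drives mitosis, and the anaphase-promoting complex ends it. Muscle fibres themselves have left the cell cycle. In dystrophic muscle the known dividing cells are satellite cells and their myoblast progeny, infiltrating macrophages, and fibroblastic and endothelial cells. In whole muscle, fewer cells of a type and less RNA per cell cannot be told apart.

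Promoters of mitotic genes often carry a CHR element beside CCAAT boxes, which bind the MuvB and NF-Y complexes, while promoters of S phase genes often carry E2F sites. The 8 promoters below were chosen, for both phases, among genes that are described in full later and hold such letters before the start site. Each runs 150 bases up to the RefSeq start site (GRCm38.p6, the build that UCSC calls mm10), 5′ to 3′ on the strand of the gene. Capitals mark matches on either strand to CHR (TTTGAA or TTCGAA), the CCAAT box (CCAAT) or an E2F site (TTTCCCGC, TTTGGCGC, TTTCGCGC or TTTGCCGC). On the other strand the CCAAT box reads ATTGG, and neighbouring matches may overlap.
Rrm2 (chr12:24708104-24708253, plus strand): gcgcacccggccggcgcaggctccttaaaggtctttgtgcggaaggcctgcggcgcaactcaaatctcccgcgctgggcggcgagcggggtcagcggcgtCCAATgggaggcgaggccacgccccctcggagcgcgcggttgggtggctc
Rrm1 (chr7:102441545-102441694, plus strand): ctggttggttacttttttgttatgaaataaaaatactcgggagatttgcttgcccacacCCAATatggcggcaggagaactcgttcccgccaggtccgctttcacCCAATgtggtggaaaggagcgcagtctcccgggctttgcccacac
Mcm6 (chr1:128359706-128359855, minus strand): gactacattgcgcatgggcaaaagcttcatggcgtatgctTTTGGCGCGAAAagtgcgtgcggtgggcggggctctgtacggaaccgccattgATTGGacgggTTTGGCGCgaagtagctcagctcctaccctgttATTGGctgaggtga
Cdk1 (chr10:69352913-69353062, minus strand): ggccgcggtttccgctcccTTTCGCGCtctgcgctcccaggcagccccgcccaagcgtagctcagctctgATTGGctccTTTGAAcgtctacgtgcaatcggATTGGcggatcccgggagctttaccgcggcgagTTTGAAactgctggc
Ccnb1 (chr13:100786487-100786636, minus strand): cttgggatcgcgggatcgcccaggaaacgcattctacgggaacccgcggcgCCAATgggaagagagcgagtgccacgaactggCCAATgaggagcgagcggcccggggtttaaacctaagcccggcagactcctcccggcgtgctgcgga
Plk1 (chr7:122159285-122159434, plus strand): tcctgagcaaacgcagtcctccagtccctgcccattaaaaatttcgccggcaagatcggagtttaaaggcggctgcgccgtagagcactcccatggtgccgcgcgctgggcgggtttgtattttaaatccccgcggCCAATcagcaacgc
Aurka (chr2:172370571-172370720, minus strand): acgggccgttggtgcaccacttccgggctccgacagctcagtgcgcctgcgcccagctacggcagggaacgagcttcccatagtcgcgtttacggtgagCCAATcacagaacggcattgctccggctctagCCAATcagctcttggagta
Mki67 (chr7:135716380-135716529, minus strand): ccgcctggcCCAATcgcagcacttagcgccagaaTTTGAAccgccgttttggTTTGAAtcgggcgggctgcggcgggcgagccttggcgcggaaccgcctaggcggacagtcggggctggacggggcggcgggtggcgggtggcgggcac

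Over the wider RefSeq window of 250 bases before to 50 after the start, 36 of the 43 genes had an entry. A CHR match lay in 17 of 22 mitotic genes (77.3%) and in 2 of 14 S phase genes (14.3%), against 21.7% of the 27025 genes in the table. For the CCAAT box the shares were 81.8%, 57.1% and 41.1%. An E2F match lay in 6 of 14 S phase genes (42.9%: Cdc6, Cdt1, Mcm3, Mcm5, Mcm6 and Mcm7) and in 1 of 22 mitotic genes (4.55%, Cdk1), against 2.6% of all genes. CHR and CCAAT together occurred in 72.7% of the mitotic windows, 14.3% of the S phase windows and 9.65% of all. The 7 genes without an entry are Ccna2, Ccne2, Foxm1, Gins2, Mcm4, Aurkb and Tpx2. A match of letters is a description of the window, and binding was not measured.

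**Figure D1:**
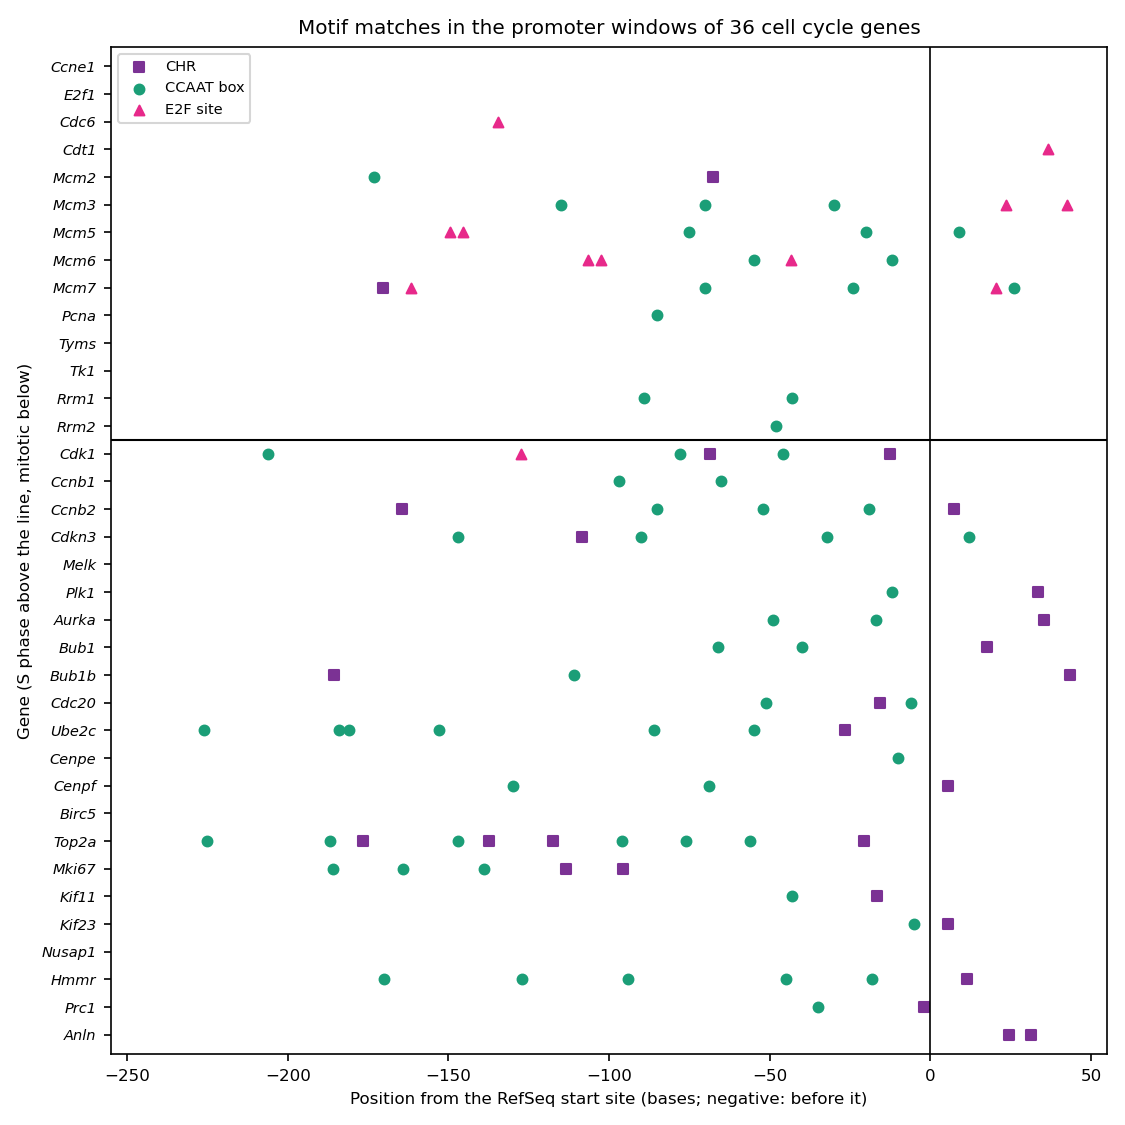
Matches to the CHR element (squares), the CCAAT box (circles) and E2F sites (triangles) in the promoter windows of the 36 genes with a RefSeq entry, by distance in bases from the start site (x axis; rows are genes, S phase above the line). CHR matches were found in 17 of 22 mitotic genes and E2F matches in 6 of 14 S phase genes.

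The libraries held between 15.8 M and 45.2 M exon reads, and all 43 genes passed the filter on low counts in every comparison. Lama2, the targeted gene, fell in dyW by 3.29 ± 0.19 (SE) on the log2 scale in the untreated cohort, with no overlap between the groups. Levels are given as CPM, reads relative to the library size after TMM scaling over the 18 libraries, unless stated as RPKM, which is also per length. Per length, Pcna, the sliding clamp, had the highest mean over the 18 libraries (10.4 RPKM), followed by Rrm1 (4.7 RPKM) and Mcm7 (2.36 RPKM). The mitotic genes lay between 0.186 RPKM (Hmmr) and 1.53 RPKM (Ube2c). At such levels read numbers were small: Plk1 had 13 to 28 reads in the untreated WT libraries and Cdk1 27 to 51.

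In the annotation of the same build, 10 of the 43 genes share exon bases with a neighbouring gene. The library kit is stranded, but whether the counting used the strand is not given in the sources used here, so that reads of such pairs may not be separated. Gins2 shares 67.3% of its exon bases with Gse1 on the opposite strand, Ube2c 22.8% with Tnnc2, the fast troponin C of muscle fibres, and Ccne2 17.4% with Ints8. Ccna2 shares 12.5% with Exosc9, Prc1 11.1% with Rccd1 and Mcm7 7.25% with Ap4m1, and the rest of the 10 share less. Values of the 10 genes may be uncertain for that reason, to different degrees. Over all libraries Tnnc2 had 5006220 reads and Ube2c 2670, and Oip5 had 217 beside 1330 of Nusap1. Gm44596, the neighbour of Foxm1, had 0 reads. How far the shared bases affect each gene was not tested. For Pcna, 62.42% of the reads mapped uniquely.

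Several libraries stood apart within their groups across many of the 43 genes. In dyW PBS, replicate 1, which is also the shallowest library of all (15.8 M exon reads), was the highest of its group for 40 of 43 genes and for all 26 mitotic ones. Its level over the mean of the other 2 dyW PBS libraries was 2.41-fold in the median mitotic gene and 1.66-fold in the median S phase gene. Among untreated WT muscles, replicate 3 was the highest for 31 genes, 22 of them mitotic, with a median of 1.82-fold over the other 2 for the mitotic genes and 1.16-fold for the S phase genes. Untreated dyW replicate 3 was the highest of its group for 31 genes and replicate 2 the lowest for 32. In the treatment cohort, WT PBS replicate 1 was the lowest of its group for 34 genes, dyW TD139 replicate 1 for 39 and WT TD139 replicate 1 for 38.

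**Figure D2:**
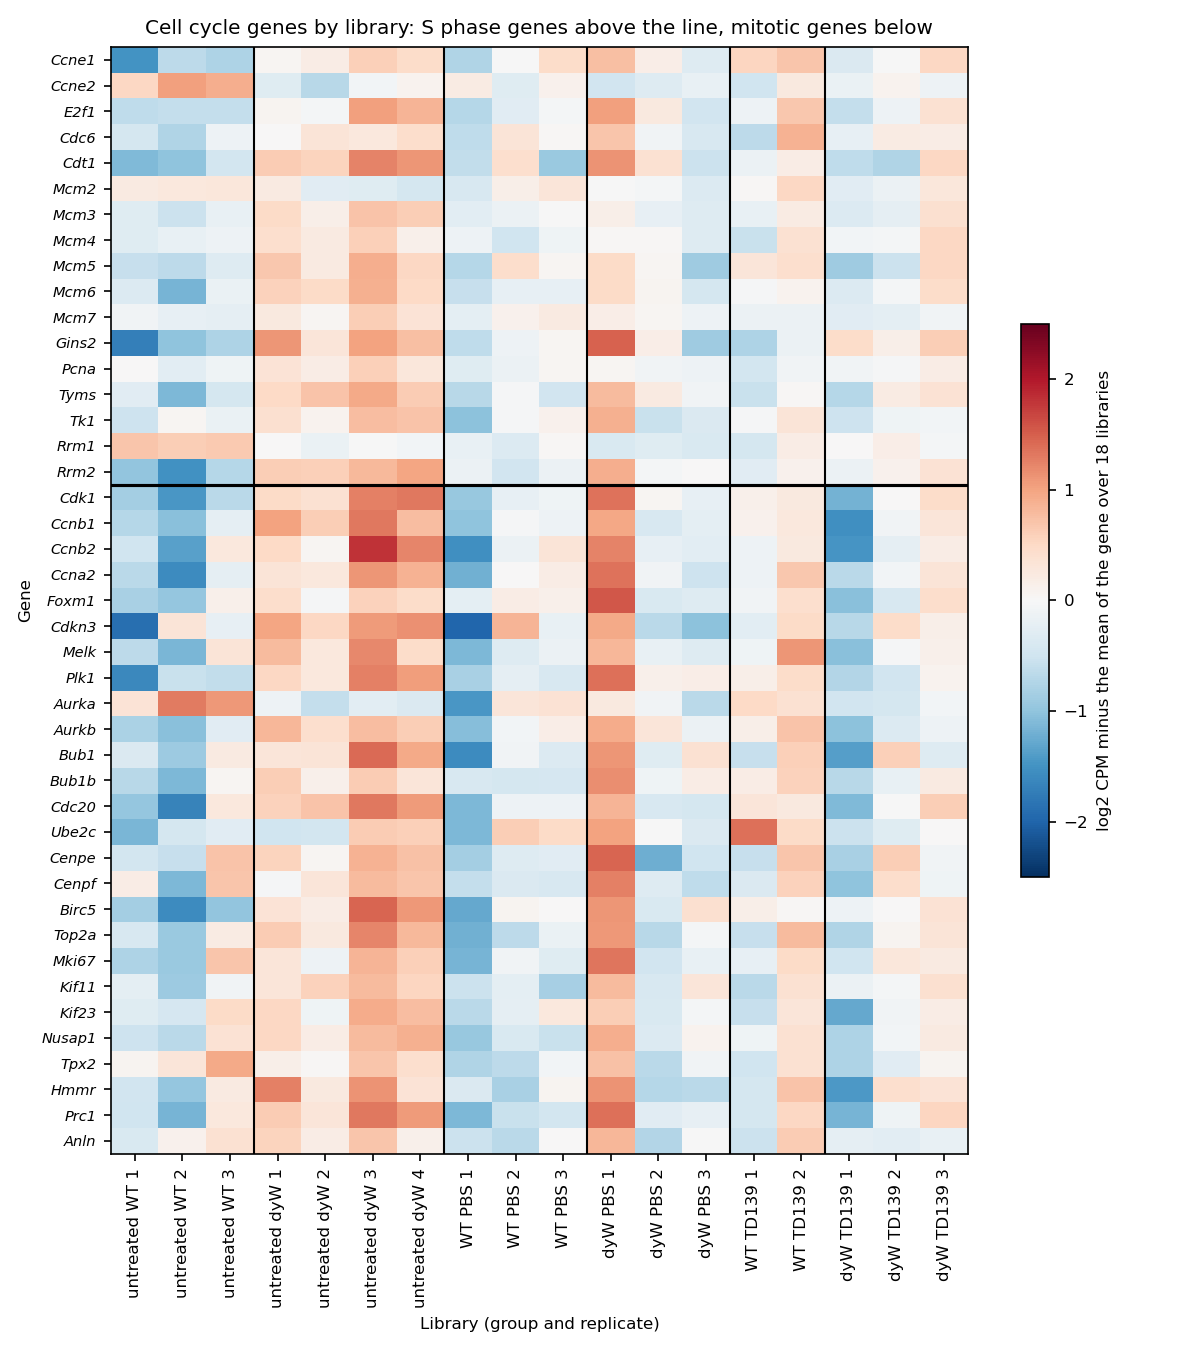
Heat map of the 43 genes (rows; S phase above the line, mitotic below) in the 18 libraries (columns, by group and replicate), coloured by log2 CPM minus the gene's mean over all libraries. The 4 untreated dyW columns and dyW PBS replicate 1 are red for most genes, while Ccne2, Rrm1 and Aurka are red in untreated WT.

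In untreated muscle, genes of both phases were higher in dyW than in WT. Of the 43 genes, 30 rose and 3 fell (edgeR's quasi-likelihood test, adjusted p under 0.05 over 14846 genes), against 24.7% of all genes that rose and 25.1% that fell (49.8% together). At an unadjusted p under 0.05 there were 36 of the 43, against 56.8% of all genes. The fit lay below 0 for 5 of the 43, against 48.5% of all genes. The S phase genes gave 13 rises and 2 falls of 17, with a median log2 fold change of 0.86. Among the 26 mitotic genes there were 17 rises and 1 fall, with a median of 1.13. The median of all genes tested was 0.03. The 4 dyW libraries all lay above the 3 WT libraries for 28 of the 43 genes and below them for 3, against 25.9% and 28.0% of all genes.

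The regulators that open S phase split. Ccne1, which encodes cyclin E1, rose by 1.35 ± 0.30 on the log2 scale, and E2f1, the activating E2F factor, by 1.2 ± 0.30. Ccne2, encoding cyclin E2, fell by 1.04 ± 0.22 (adjusted p = 0.00527), from 4.72, 6.7 and 6.18 CPM in WT to 2.64, 2, 3.13 and 3.48 CPM in dyW. The 2 cyclin E genes thus lay on opposite sides, in each case with no overlap between the genotypes. On the RPKM scale the call for Ccne2 was lost.

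In the licensing group, 6 of 8 genes rose. Cdt1, the licensing factor that loads the helicase with Cdc6, was at 0.722, 0.78 and 1.18 CPM in WT and at 2.55, 2.42, 3.91 and 3.53 CPM in dyW, a rise of 1.81 ± 0.29 on the log2 scale (adjusted p = 0.00132). All 4 dyW libraries lay at over 2 CPM, and no WT library did. The helicase subunits did not move alike: Mcm5 rose by 1.15 ± 0.21 and Mcm6 by 1.14 ± 0.24, Mcm3 by 0.86 ± 0.18, Mcm4 by 0.58 ± 0.16 and Mcm7 by 0.52 ± 0.15. Mcm2, a subunit of the same ring, had a log2 fold change of -0.42 ± 0.17 (adjusted p = 0.0693), and Cdc6 one of 0.74 ± 0.28 (adjusted p = 0.0557). Mcm2 changed sign on the RPKM scale, to 0.10 on log2(RPKM + 0.1). Differences between subunits were not tested.

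Both fork factors rose. Pcna, the gene with the highest mean level per length (RPKM), rose by 0.50 ± 0.13, and the same call was made from uniquely mapped reads. Gins2, a subunit of the GINS complex of the helicase, had the largest fitted rise, 2.11 ± 0.36, from no more than 0.425 CPM in WT to at least 0.963 CPM in dyW, with the limit from its overlap with Gse1.

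For nucleotide supply, the 2 subunits of ribonucleotide reductase moved in opposite directions. Rrm2, the small subunit whose level is known to limit the enzyme in S phase, was at 1.71, 1.17 and 2.06 CPM in WT and at 5.27, 5.19, 6.07 and 6.9 CPM in dyW. That is a rise of 1.84 ± 0.23 on the log2 scale with the smallest adjusted p of the 43 genes (0.000455). Rrm1, the large subunit, which is also present outside S phase, was at 40, 37.7 and 39 CPM in WT and at 24.6, 22, 24.4 and 23.7 CPM in dyW, a fall of 0.70 ± 0.09 (adjusted p = 0.000581). Each gene's genotypes were separate, and the spread within a group was narrow for Rrm1 (SD 1.15 CPM in WT, n = 3, and 1.18 CPM in dyW, n = 4). On log2(RPKM + 0.1), where the median of all genes lies at 0.51, the call for Rrm1 was lost, with an adjusted p of up to 0.319 over all alternatives. Tyms, thymidylate synthase, rose by 1.33 ± 0.25 and Tk1, thymidine kinase of the salvage route, by 0.74 ± 0.24.

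In the Cdk1 module, 6 of 7 genes rose. Cdk1, the kinase that starts mitosis, was at 1.48, 0.958 and 1.67 CPM in WT and at 3.78, 3.58, 6.58 and 6.8 CPM in dyW, a rise of 1.93 ± 0.33 (adjusted p = 0.00175). Its partner Ccnb1, cyclin B1, went from 0.722, 0.567 and 1.05 CPM to 2.53, 1.91, 3.15 and 2.15 CPM, a rise of 1.66 ± 0.30 (adjusted p = 0.00227). For both genes the lowest dyW library stood above the highest WT library. Ccnb2 rose by 1.47 ± 0.52, Ccna2, cyclin A2, by 1.43 ± 0.35, Foxm1, a transcription factor of mitotic genes, by 0.87 ± 0.31, and Melk by 1.16 ± 0.42. Cdkn3, a phosphatase of Cdk1 and Cdk2, missed the threshold (1.5 ± 0.56, adjusted p = 0.0514).

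In the untreated cohort the Aurora kinases parted. Plk1, the polo kinase, rose by 1.76 ± 0.37 and Aurkb, the kinase of the chromosomal passenger complex, by 1.41 ± 0.26. Aurka, the centrosomal Aurora kinase, fell by 1.28 ± 0.23 (adjusted p = 0.00243), from 4.82, 9.26 and 8.01 CPM in WT to 3.45, 2.48, 3.11 and 2.91 CPM in dyW. Its groups did not overlap, and its call, unlike those of Ccne2 and Rrm1, also stood on both RPKM scales. Tpx2, which encodes the activator of Aurora A on the spindle, was at 4.17, 4.93 and 7.71 CPM in WT and at 4.43, 4.03, 6.52 and 5.36 CPM in dyW, with overlapping groups (-0.12 ± 0.25, adjusted p = 0.703).

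Of the spindle checkpoint and anaphase-promoting genes, Bub1 rose by 1.18 ± 0.41, Bub1b by 0.98 ± 0.31 and Cdc20, which activates the anaphase-promoting complex, by 1.56 ± 0.45. Ube2c, its ubiquitin-conjugating enzyme, did not pass (0.77 ± 0.37, adjusted p = 0.114). Among the chromosome and kinetochore genes, Birc5, or survivin, rose by 2.04 ± 0.38 and Top2a, the topoisomerase that untangles sister chromatids, by 1.09 ± 0.31, while the kinetochore proteins Cenpe (0.60 ± 0.37) and Cenpf (0.40 ± 0.40) did not pass. In the spindle and cytokinesis group, the motor Kif11 (0.95 ± 0.23), the midzone organiser Prc1 (1.26 ± 0.37), Hmmr (1.2 ± 0.40) and Nusap1 (0.85 ± 0.31) rose, and Kif23 (0.64 ± 0.33) and Anln (0.36 ± 0.23), both of cytokinesis, did not pass.

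Mki67, the usual marker of dividing cells, was among the 10 genes that did not pass. It was at 5.25, 4.75 and 14.6 CPM in WT and at 11.2, 8.25, 16.3 and 13.7 CPM in dyW (0.60 ± 0.41, adjusted p = 0.242). Its highest WT value was that of replicate 3, and this library alone makes the groups overlap. Without it Mki67 and Cenpe were called, Mcm7 and Tk1 were not, 33 genes passed in all and the mitotic median was 1.48. Without WT replicate 1 or replicate 2, 12 of the 33 calls were lost and the mitotic median was 1.01 or 0.86. Without untreated dyW replicate 3, 8 calls were lost. On both RPKM scales, 7 of the 10 genes were called higher: Mki67, Ube2c, Cenpe, Anln, Kif23, Cdc6 and Cdkn3. On log2(RPKM + 0.1), 7636 of all 14846 genes rose and 1293 fell. With a term for the sex label the calls of Foxm1, Melk and Nusap1 were lost. Over all alternatives the calls of these 3 genes were each lost in 7 of 15, and those of Bub1, Hmmr and Tk1 in 5.

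**Figure D3:**
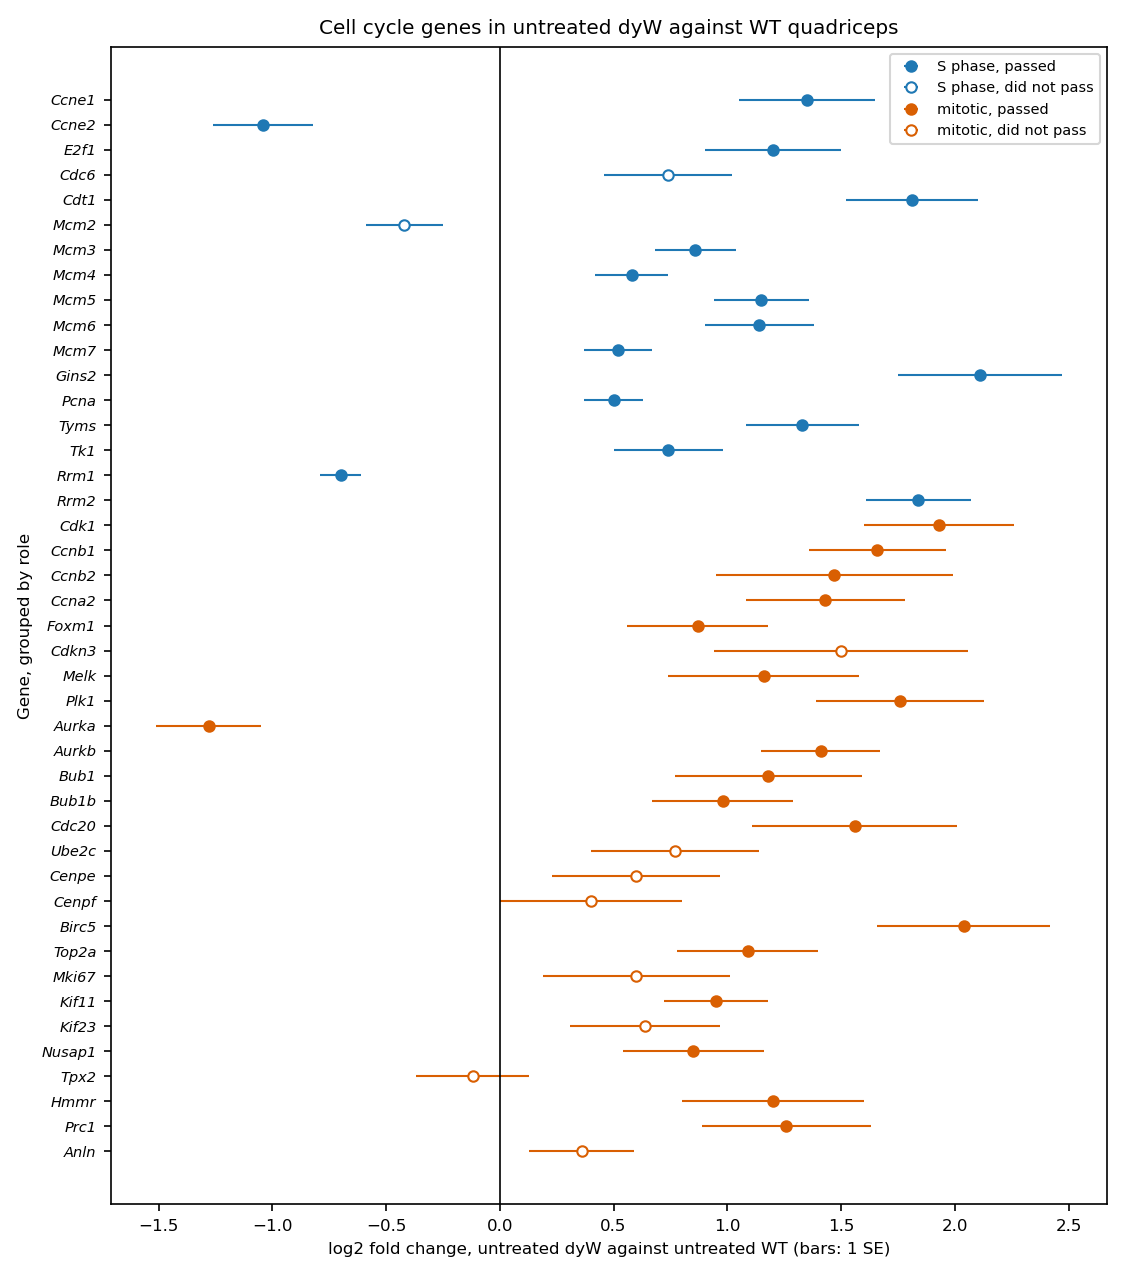
Log2 fold change of each gene (y axis, in order of role) in untreated dyW against untreated WT, with bars of 1 SE; S phase genes are blue, mitotic genes orange, and filled points passed the adjusted threshold. In all, 30 genes lie to the right and pass, and Ccne2, Rrm1 and Aurka lie to the left and pass.

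In the authors' deposited table for this comparison, 25 of the 30 genes that rose and all 3 that fell were also called in the same direction at an adjusted p under 0.05. Tk1, Melk, Bub1, Nusap1 and Hmmr were called higher here and not in the authors' deposited table, Cdkn3 was called higher there and not here, and 9 genes were called in neither.

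Other genes of the cycle were counted from 5 wider lists, to be read against the 24.7% of all genes that rose and the 25.1% that fell. Of 43 kinetochore, condensin, spindle and cytokinesis genes, 22 rose and none fell in untreated dyW, with a median of 0.96; Kif2c, a microtubule depolymerase, rose by 2.32 ± 0.42 and Cdc25b, a phosphatase that activates Cdk1, by 1.21 ± 0.20. The list of origin recognition, replisome and chromatin assembly genes gave 11 rises and 7 falls of 36 tested, with a median of 0.32: Lig1, the replicative DNA ligase, rose by 1.47 ± 0.24, while Rpa1, of the single-strand binding complex, fell by 0.72 ± 0.11 and Orc4 by 0.59 ± 0.10. Among 14 E2F, DP and MuvB factors, 4 rose and 6 fell. The repressor E2f8 rose by 3.05 ± 0.31, E2f6 fell by 1.32 ± 0.12 and E2f3 by 0.79 ± 0.10. Of 7 G1 cyclins and kinases, 4 rose, among them Cdk6 by 1.66 ± 0.21 and Cdk4 by 0.75 ± 0.12, and 1 fell.

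Among 9 tested Cdk inhibitors and pocket proteins, which hold the cycle back, 3 rose and 3 fell. Cdkn1a, which encodes p21, the inhibitor of cyclin-dependent kinases, was at 25.5, 14.1 and 12.8 CPM in WT and at 131, 155, 137 and 130 CPM in dyW, a rise of 3.00 ± 0.25 (adjusted p = 0.000148). The genotypes were far apart. Cdkn2d rose by 0.65 ± 0.12 and Rbl2, or p130, a pocket protein of quiescent cells, fell by 0.98 ± 0.16.

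Most markers on the macrophage list rose in untreated dyW, where 24.7% of all genes rose. On the satellite cell and myoblast list most also rose, but Pax7 fell and Myf5 did not rise by edgeR. Of 9 macrophage markers 7 rose, and their summed level went from 65.9 to 107 RPKM in untreated WT to 463 to 638 RPKM in untreated dyW. Among 8 satellite cell and myoblast markers 5 rose (the fusion genes Mymk and Mymx with them) and 1 fell, Pax7, which marks satellite cells. Their sum went from 22.3 to 39.4 RPKM to 89.9 to 162 RPKM. Within it the mean of Myog went from 8.18 to 49.4 RPKM, Mymk from 1.63 to 25.8 RPKM and Chrna1 from 4.4 to 21.3 RPKM. In CPM, Myf5 (means of 2.15 in WT and 2.06 in dyW) and Myod1 (22.4 and 29.3) overlapped between the genotypes. In RPKM, the scale of the sums, both were higher in every dyW library. Myf5 was at 0.746 to 0.89 RPKM in WT and 1.03 to 1.25 RPKM in dyW. Myod1 was at 7.4 to 11 RPKM and 12.2 to 24.5 RPKM. Pax7 overlapped in RPKM (0.753 to 1.11 in WT and 0.667 to 0.953 in dyW). All 4 tested neutrophil markers rose, as did 3 of 7 fibroblast markers, and 4 of 7 mature fibre markers fell, where 25.1% of all genes fell. Of 5 endothelial markers 1 rose and of 7 tested lymphocyte markers 1, shares no higher than that of all genes. Ly6g, a defining neutrophil marker, had no read in any untreated dyW library. Untreated WT replicate 3 had the lowest macrophage sum of its group (65.9 RPKM) and the highest satellite cell and myoblast sum (39.4 RPKM). The part of these cell types in the cell cycle differences was not tested.

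In the treatment cohort, dyW and WT mice given PBS were compared next. None of the 43 genes passed the adjusted threshold by edgeR (5 had an unadjusted p under 0.05) or by DESeq2, against 2.68% of 15331 genes called (2.4% higher and 0.28% lower) and 15.1% at an unadjusted p under 0.05. Fitted values lay above 0 for 36 of the 43 genes, against 47.0% of all genes, and below 0 for 7, against 52.9%, with a median of 0.18 over the S phase genes and 0.71 over the mitotic ones (all genes, -0.03). The dyW PBS libraries lay above all WT PBS libraries for 5 of the 43 genes, against 11% of all genes, and below them for none, against 6.56%. Plk1 came closest: it was at 0.784, 1.21 and 1.06 CPM in WT PBS and at 3.76, 1.56 and 1.59 CPM in dyW PBS (1.16 ± 0.41, adjusted p = 0.183). The groups were separate, but one dyW library held most of the distance. Bub1b showed the same layout, with 1.6, 1.57 and 1.59 CPM in WT PBS and 4.91, 1.99 and 2.44 CPM in dyW PBS (0.96 ± 0.36, adjusted p = 0.23).

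Cdk1 and Mki67 overlapped between the PBS groups. Cdk1 was at 1.37, 2.33 and 2.52 CPM in WT PBS and at 7.01, 2.78 and 2.33 CPM in dyW PBS (0.95 ± 0.48, adjusted p = 0.385). Mki67 was at 4.01, 8.53 and 7.34 CPM and at 22.8, 6.45 and 7.99 CPM (0.90 ± 0.45, adjusted p = 0.382). For both genes the first dyW PBS library stood far above, and the other 2 lay within or near the WT range. Among the S phase genes Rrm2 had the smallest p, with 3.11, 2.44 and 3.09 CPM in WT PBS and 6.48, 3.33 and 3.43 CPM in dyW PBS (0.61 ± 0.29, adjusted p = 0.359), and its groups did not overlap. Tyms was at 1.26, 2.02 and 1.46 CPM in WT PBS and at 3.61, 2.41 and 1.95 CPM in dyW PBS (0.74 ± 0.37). E2f1 was at 1.93, 2.61 and 3.09 CPM and at 6.54, 3.8 and 2.3 CPM (0.72 ± 0.40). Both overlapped between the groups. Nusap1 was at 0.924, 1.4 and 1.23 CPM and at 3.5, 1.44 and 1.95 CPM (0.94 ± 0.40), with a narrow gap between the groups. Rrm1, Ccne2 and Aurka, which fell in untreated dyW, each overlapped between the PBS groups. Rrm1 had means of 22.1 CPM in WT PBS and 19.2 CPM in dyW PBS, Ccne2 of 3.31 and 2.62 CPM, and Aurka of 3.62 and 3.46 CPM. Their means in untreated WT were higher, at 38.9, 5.87 and 7.36 CPM. In WT TD139 they were 23, 3.13 and 5.12 CPM.

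The mitotic difference between the PBS groups rested on dyW PBS replicate 1. Without it the mitotic median was 0.08, with 15 genes above 0 and 11 below, and the S phase median was -0.04, with 7 above and 10 below. Without WT PBS replicate 1 the medians were 0.46 and 0.01. The macrophage marker sum was 350 RPKM in this library and 185 and 129 RPKM in the other 2, against 45 to 54 RPKM in WT PBS. The satellite cell and myoblast sum was 128 RPKM against 104 and 93.8 RPKM. The sum of the erythroid markers was 2430 RPKM against 420 and 322 RPKM, with 755 to 1420 RPKM in WT PBS. The neutrophil sum was 2.2 RPKM against 0.879 and 0.719 RPKM. The fibroblast sum (1420 RPKM) lay between those of the other libraries (1470 and 763 RPKM). The part of these cell types in the high cell cycle values of replicate 1 was not tested. Of the wider lists, only Cdkn1a was called in this comparison: it was at 48.3, 22.6 and 30.8 CPM in WT PBS and at 94, 82.2 and 107 CPM in dyW PBS (1.48 ± 0.26, adjusted p = 0.0132), with replicate 1 inside the dyW range. Without dyW PBS replicate 1 or without WT PBS replicate 3 the log2 fold change was 1.48 or 1.42. The call was then lost, with an adjusted p of up to 0.0664. E2f8 had a log2 fold change of 1.90 ± 0.52 (adjusted p = 0.0824), and none of the 43 genes on the kinetochore and spindle list passed by edgeR, with 1 at an unadjusted p under 0.05.

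**Figure D4:**
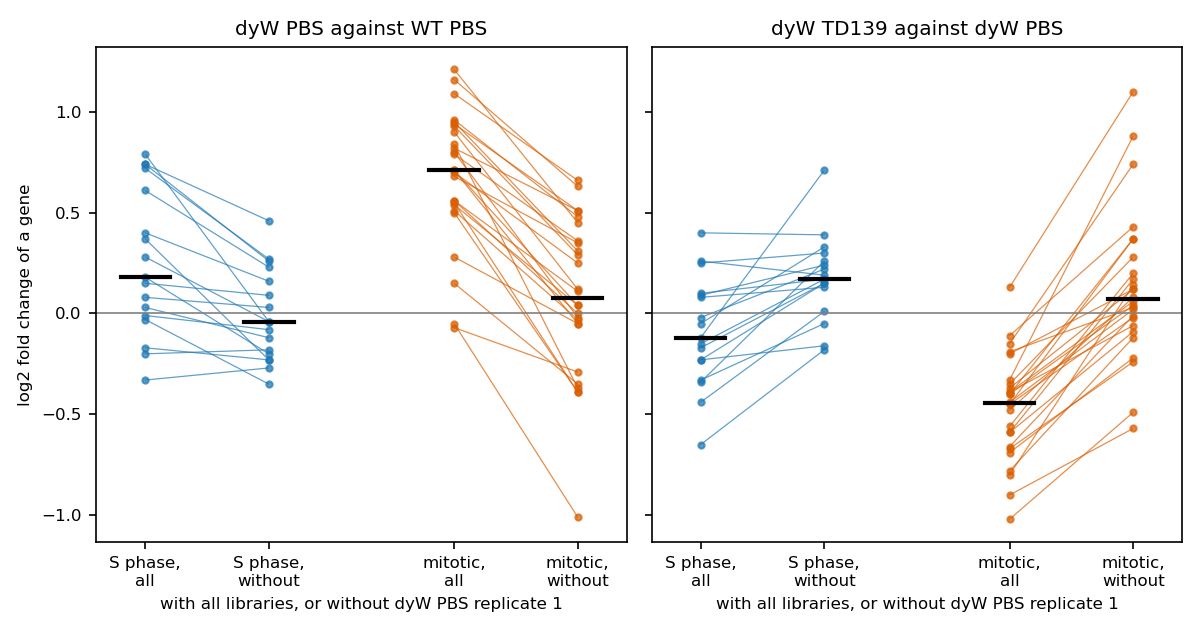
Log2 fold change of each S phase (blue) and mitotic (orange) gene in the 2 comparisons with dyW PBS, from all libraries and without dyW PBS replicate 1 (lines join a gene; black bars are medians). The mitotic median went from 0.71 to 0.08 in dyW PBS against WT PBS and from -0.44 to 0.07 in dyW TD139 against dyW PBS.

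TD139 was compared with PBS within dyW. None of the 43 genes passed by edgeR or by DESeq2, 2 had an unadjusted p under 0.05 (Rrm1 and Plk1), and 0.0% of 15331 genes passed, with 3.8% at an unadjusted p under 0.05. Fitted values lay below 0 for 25 of 26 mitotic genes, against 51.2% of all genes, with a median of -0.44, and for 11 of 17 S phase genes, with a median of -0.12. Above 0 lay 7 of the 43, against 48.8% of all genes. The TD139 libraries lay above all PBS libraries for 2 of the 43 genes, against 7.18% of all genes, and below them for 1, against 7.08%. Plk1 was at 0.827, 1.01 and 1.52 CPM under TD139 and at 3.76, 1.56 and 1.59 CPM under PBS (-1.02 ± 0.40, adjusted p = 0.888). Aurkb, at 0.608, 1.01 and 1.19 CPM under TD139 and 2.51, 1.61 and 1.17 CPM under PBS, had a log2 fold change of -0.90 ± 0.43. Bub1b, at 1.31, 1.87 and 2.52 CPM and 4.91, 1.99 and 2.44 CPM, had one of -0.69 ± 0.36. Both overlapped. Cdk1, at 1.17, 2.7 and 3.73 CPM under TD139, had a log2 fold change of -0.66 ± 0.47, and Mki67, at 6.4, 11 and 10.6 CPM, one of -0.40 ± 0.44. Both overlapped with PBS, and Mki67 turned to 0.37 without dyW PBS replicate 1. Without that library the mitotic median was 0.07, with 17 genes above 0 and 9 below, and the S phase median 0.17, with 14 above and 3 below. Without dyW TD139 replicate 1 the mitotic median was -0.20. Rrm1 had the smallest p of the S phase genes, with 24.8, 27.6 and 24 CPM under TD139 and 18.8, 20 and 18.9 CPM under PBS (0.40 ± 0.17, adjusted p = 0.888), and the groups did not overlap. Mcm7 was at 8.76, 9 and 10.1 CPM and at 12, 11 and 9.8 CPM (-0.23 ± 0.16). Cdt1 was at 1.02, 0.934 and 2.36 CPM and at 3.61, 2.13 and 1.1 CPM (-0.65 ± 0.51). In the authors' deposited table for this comparison none of the 43 genes was called at an adjusted p under 0.05.

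In WT muscle, TD139 against PBS likewise gave no call among the 43 genes by edgeR, with none at an unadjusted p under 0.05, or by DESeq2 (0.0% of all genes called, 1.98% at an unadjusted p under 0.05). The TD139 libraries lay above all PBS libraries for 11 of the 43 genes, against 4.82% of all genes, and below them for none, against 4.23%. All 26 mitotic genes were fitted above 0, against 51.8% of all genes, with a median of 0.63, and the S phase median was 0.21. Mki67 was at 7.87 and 12.6 CPM under TD139 and at 4.01, 8.53 and 7.34 CPM under PBS (0.63 ± 0.50). Cdk1 was at 2.97 and 3.2 CPM under TD139, above each of the 3 PBS libraries (0.57 ± 0.53, adjusted p = 1.0). The first TD139 library was the lower of its pair for most genes: without TD139 replicate 2 the mitotic median was 0.20, with 17 genes above 0 and 9 below, and without WT PBS replicate 1 it was 0.40. Among mitotic genes, Bub1b, Melk and Nusap1 had the smallest p-values. Bub1b was at 2.43 and 3.2 CPM under TD139 and at 1.6, 1.57 and 1.59 CPM under PBS (0.83 ± 0.40). Melk was at 0.787 and 1.89 CPM under TD139 and at 0.364, 0.674 and 0.764 CPM under PBS (1.16 ± 0.56). Nusap1 was at 1.72 and 2.44 CPM under TD139 and at 0.924, 1.4 and 1.23 CPM under PBS (0.81 ± 0.43). In each of them both TD139 libraries lay above the PBS libraries. Among S phase genes these were E2f1, Ccne1 and Mcm6. E2f1 was at 2.93 and 5.13 CPM under TD139 and at 1.93, 2.61 and 3.09 CPM under PBS (0.66 ± 0.44). Ccne1 was at 1.79 and 2 CPM under TD139 and at 0.7, 1.21 and 1.69 CPM under PBS (0.66 ± 0.45). Mcm6 was at 7.76 and 8.37 CPM under TD139 and at 5.24, 6.79 and 6.81 CPM under PBS (0.36 ± 0.29). All adjusted p-values were 1.0.

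Whether TD139 acted differently by genotype was fitted as an interaction (dyW minus WT), which shares its libraries with both comparisons above. None of the 43 genes passed by edgeR (3 at an unadjusted p under 0.05: Plk1, Bub1b and Aurkb) or by DESeq2, against 0.0% of all genes called and 1.92% at an unadjusted p under 0.05, and every adjusted p was 1.0. The fitted difference was below 0 for all 26 mitotic genes, against 49.4% of all genes, with a median of -1.06, and the S phase median was -0.38. Plk1 had a difference of -1.82 ± 0.60, Bub1b of -1.52 ± 0.54 and Aurkb of -1.61 ± 0.64. Among S phase genes E2f1 (-1.10 ± 0.59), Ccne1 (-0.83 ± 0.61) and Rrm1 (0.34 ± 0.26) had the smallest p-values, and Cdk1 (-1.23 ± 0.71) and Mki67 (-1.03 ± 0.67) did not pass. Of values not given with the single comparisons, E2f1 was at 2.12, 2.95 and 4.2 CPM in dyW TD139 and Ccne1 at 2.09, 1.37 and 0.955 CPM in dyW PBS. Rrm1 was at 18.1 and 27.9 CPM and Plk1 at 1.57 and 1.96 CPM in WT TD139. Aurkb was at 0.588, 1.24 and 1.46 CPM in WT PBS. Leaving out dyW PBS replicate 1 brought the mitotic median to -0.44, with 3 genes above 0 and 23 below, and leaving out WT TD139 replicate 2 brought it to -0.71.

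Under TD139, dyW against WT gave no call among the 43 genes by edgeR (1 at an unadjusted p under 0.05, Ube2c) or by DESeq2, against 1.04% of all genes called (0.757% higher, 0.287% lower) and 15.9% at an unadjusted p under 0.05. The S phase median was -0.04 and the mitotic median -0.31, and the mitotic median was -0.01 on log2(RPKM + 0.1). Without WT TD139 replicate 2, 13 mitotic genes lay above 0 and 13 below, and the mitotic median was -0.69 without WT TD139 replicate 1 and -0.06 without dyW TD139 replicate 1. Ube2c, at 9.84 and 5.24 CPM in WT and 2.58, 3.02 and 3.78 CPM in dyW, had a log2 fold change of -1.27 ± 0.50 (adjusted p = 0.243). This gene carries the limit from Tnnc2. Aurkb was at 1.43 and 2.15 CPM in WT and at 0.608, 1.01 and 1.19 CPM in dyW (-0.93 ± 0.47). Aurka was at 5.33 and 4.91 CPM in WT and at 2.68, 2.78 and 3.62 CPM in dyW (-0.76 ± 0.45). Neither overlapped. Among S phase genes the smallest p-values were those of Pcna, Gins2 and Ccne1. Pcna was at 18.4 and 23.8 CPM in WT and at 24.1, 24.8 and 28.8 CPM in dyW (0.30 ± 0.17). Gins2 was at 0.429 and 0.691 CPM in WT and at 1.07, 0.86 and 1.21 CPM in dyW (0.90 ± 0.62). Ccne1 was at 1.79 and 2 CPM in WT and at 0.924, 1.2 and 1.75 CPM in dyW (-0.55 ± 0.45). Pcna and Gins2 were fitted higher in dyW, and Ccne1 lower. Cdk1 (-0.28 ± 0.53) and Mki67 (-0.13 ± 0.50) overlapped. Cdkn1a was again called, at 23.9 and 18.8 CPM in WT and 93.5, 62.4 and 74.4 CPM in dyW (1.85 ± 0.31, adjusted p = 0.0179).

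**Figure D5:**
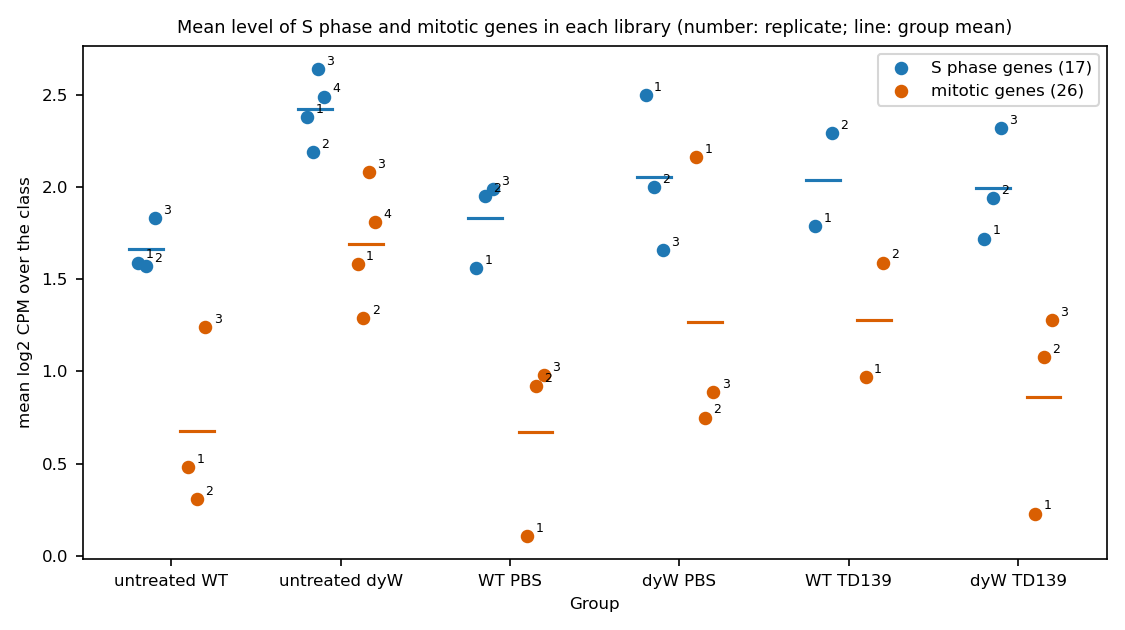
Mean log2 CPM over the 17 S phase genes (blue) and the 26 mitotic genes (orange) in each library, by group; numbers are replicates and lines are group means. The mitotic mean ran from 0.11 in WT PBS replicate 1 to 2.16 in dyW PBS replicate 1, and the untreated dyW libraries lay between 1.29 and 2.08.

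The S phase and mitotic classes were set side by side in each library as mean log2 CPM. The S phase mean varied less between replicates (pooled SD 0.28) than the mitotic mean (0.53). It was 1.59, 1.57 and 1.83 in untreated WT and 2.38, 2.19, 2.64 and 2.49 in untreated dyW, with a clear gap between the groups. The mitotic mean was 0.48, 0.31 and 1.24 in untreated WT and 1.58, 1.29, 2.08 and 1.81 in untreated dyW, where WT replicate 3 came close to dyW replicate 2. S phase minus mitotic, which depends on gene choice and is read only between libraries, ran from 0.34 in dyW PBS replicate 1 to 1.49 in dyW TD139 replicate 1. It was 1.1, 1.26 and 0.58 in untreated WT and 0.8, 0.9, 0.56 and 0.68 in untreated dyW, so that the groups overlapped. No test was made on these means, since the genes were chosen with results known.

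The genotype difference itself was compared between cohorts, where cohort, age label and vehicle cannot be told apart. None of the 43 genes differed by edgeR at the adjusted threshold (7 had an unadjusted p under 0.05), against 1.72% of 15771 genes called and 22.7% at an unadjusted p under 0.05, and DESeq2 called 1, Rrm2. The median difference, untreated minus PBS, was 0.54 for S phase and 0.33 for mitotic genes. The mitotic median was 0.20 without untreated WT replicate 1, 0.13 without replicate 2 and 0.71 without replicate 3. Without dyW PBS replicate 1 the medians were 0.92 and 0.93, and Rrm2 was called by edgeR. Rrm2 had a difference of 1.22 ± 0.37 (adjusted p = 0.0829), Mcm3 of 0.82 ± 0.30, Rrm1 of -0.52 ± 0.19 and Aurka of -1.23 ± 0.50. Birc5 (1.23 ± 0.59), Ccnb1 (1.08 ± 0.64), Cdk1 (0.97 ± 0.62) and Mki67 (-0.31 ± 0.66) did not pass. Birc5 was at 2.72, 2.4, 5.92 and 4.54 CPM in untreated dyW and at 4.6, 1.61 and 2.83 CPM in dyW PBS. Mcm3 was at 4.99, 4.26 and 5.42 CPM in untreated WT and at 5.15, 5.56 and 6.14 CPM in WT PBS. The PBS libraries of Birc5 and the WT libraries of Mcm3 overlapped with the untreated ones. Aurka was at 4.5, 3.55 and 2.33 CPM in dyW PBS, and Ccnb1 at 0.588, 1.21 and 1.13 CPM in WT PBS. Calls in the untreated cohort and none in the PBS cohort thus do not by themselves show a difference between them.

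WT PBS against untreated WT gave 2 falls among the 43 genes, against 10.7% of all genes called (4.8% higher and 5.95% lower). At an unadjusted p under 0.05 there were 6 of the 43, against 30.1% of all genes. Rrm1 was at 21.8, 19.4 and 25 CPM under PBS and at 37.7 to 40 CPM in untreated WT, a fall of 0.82 ± 0.14 (adjusted p = 0.0063). Ccne2 was at 3.78, 2.64 and 3.52 CPM and at 4.72 to 6.7 CPM, a fall of 0.82 ± 0.25 (adjusted p = 0.042), and this call was lost in 9 of 14 alternatives. Both are genes that also fell in untreated dyW, a comparison that shares the untreated WT libraries. Aurka, at 1.34, 4.66 and 4.85 CPM under PBS, had a log2 fold change of -1.03 ± 0.37, Tpx2, at 2.35, 2.5 and 3.79 CPM, one of -0.96 ± 0.36, and Birc5, at 0.84, 2.22 and 2.13 CPM against 1.15, 0.674 and 1.05 CPM in untreated WT, one of 0.85 ± 0.44. Rrm2 had one of 0.80 ± 0.28. None of these passed, nor did Cdk1 (0.60 ± 0.46) or Mki67 (-0.31 ± 0.48). DESeq2 called Aurka and Rrm2 as well. In dyW PBS against untreated dyW none passed by edgeR (4 at an unadjusted p under 0.05), against 4.97% of all genes called and 23.4% at an unadjusted p under 0.05, while DESeq2 called Mcm3 and Pcna. Fitted values lay below 0 for 38 of the 43 genes, against 48.7% of all genes, with medians of -0.37 for S phase and -0.30 for mitotic genes. Pcna was at 26, 23.9 and 23.3 CPM under PBS and at 32.3, 29, 38.4 and 31.1 CPM in untreated dyW (-0.42 ± 0.13). Mcm3 was at 6.85, 5.39 and 4.95 CPM under PBS and at 8.64, 6.84, 10.2 and 9.44 CPM in untreated dyW (-0.62 ± 0.20). Rrm1 was at 18.8, 20 and 18.9 CPM under PBS and at 24.6, 22, 24.4 and 23.7 CPM in untreated dyW (-0.30 ± 0.13). Pcna, the clamp, and Rrm1 were lower in every PBS library. Such a fall without overlap was seen for 4 of the 43 genes, against 9.83% of all genes. A rise without overlap was seen for none, against 9.92%. Cdc20 was at 2.88, 1.19 and 1.17 CPM under PBS and at 2.38, 2.65, 4.03 and 3.37 CPM in untreated dyW (-0.86 ± 0.48). Ccnb1 was at 2.46, 0.918 and 1.03 CPM under PBS and at 2.53, 1.91, 3.15 and 2.15 CPM in untreated dyW (-0.76 ± 0.43). Cdkn3 was at 0.575, 0.149 and 0.106 CPM under PBS and at 0.594, 0.413, 0.623 and 0.664 CPM in untreated dyW (-1.16 ± 0.74). In each of these the first PBS library was the highest of its group. Cdk1 (-0.38 ± 0.41) and Mki67 (-0.01 ± 0.45) overlapped. Without dyW PBS replicate 1 all 43 genes lay below 0, with medians of -0.62 for S phase and -0.81 for mitotic genes.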

How the data were processed

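Total RNA (1 µg) from quadriceps was sequenced as paired 58 bp reads from a stranded mRNA kit, per the labels' protocols. The authors deposited 1 table per library with total exon read counts, unique exon read counts and RPKM for 48709 genes, and 2 tables of their own comparisons with log2 fold changes and adjusted p-values. The submitters' processing notes name the build mm10, and the aligner and counter are not given in the sources used here. Of the genes listed, 17044 have an exon length of 0 and were left out.

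Counts were tested with edgeR 4.0.16 (quasi-likelihood F-test, TMM, filterByExpr with a minimum count of 10 and a minimum total of 15, Benjamini-Hochberg over all genes tested) in R 4.3.3, in 3 fits: the 7 untreated libraries, the 11 of the treatment cohort, and all 18 for comparisons across cohorts. Standard errors are the log2 fold change divided by the root of F. DESeq2 1.42.0 and limma 3.58.1 (log2(RPKM + 0.1) and log2(RPKM + 1)) served as alternatives, with RLE scaling, no filter, unique reads, a term for the sex label, and each library left out. TMM factors were 0.796 to 0.926 in untreated WT and 1.153 to 1.35 in untreated dyW, so that TMM and RPKM scales differ between these groups.

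The fit was tested on simulated counts with known changes. Most of the smaller changes were not recovered in either cohort, and fewer changes were recovered in the treatment cohort. A gene that did not pass may therefore still differ. The simulation changed a far smaller share of genes than the 49.8% called in the untreated comparison, so its recovery does not describe that comparison. The precision of a low count is set by its reads, and 1 mouse stands for 1 library.

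The 43 genes and the lists were chosen with earlier results of these data known. Values per library are given for Mki67, Cdk1 and, per comparison, the 3 S phase and 3 mitotic genes with the smallest p and any called against the majority, and fold changes for up to 3 genes per wider list; for a comparison between cohorts or of effects values already given for a group are not repeated. In the lists, 5 symbols were matched through older names.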

Additional observations from a re-analysis of the deposited data

Results flagged for a closer look

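Of the 43 genes and 2 class means in the 4 untreated dyW libraries, none held a library separated from the rest by more than Dixon's critical value. One gene of the wider lists stood out by a test of the difference itself. The genotype effect on Cdkn1a, the gene of p21, was larger in the untreated cohort than in the PBS cohort by 1.5 on the log2 scale (SE 0.37, edgeR adjusted p = 0.0497). Its effect was 3.00 in the untreated and 1.48 in the PBS cohort, and it was higher in every dyW library than in every WT library of its cohort. Over 21 alternatives the difference ran from 1.16 to 1.88, with adjusted p from 0.00315 to 0.132, and the call was lost in 14. Cohort, age label and vehicle cannot be told apart.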

How the results depend on the processing

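No paired analysis was possible because the labels give each mouse its own animal number and no replicate numbers shared between groups. Of 2085 values of named genes under alternatives, 1937 kept direction and side of the threshold, 89 lost the call, 37 gained it and 22 changed sign. Many of these values belong to comparisons with no call among the 43 genes, where few genes came near the threshold. The tally therefore does not measure how stable the calls are. In no group did more than 2 of the 43 genes have a library under 10 reads.

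On the scale of log2(RPKM + 1), the S phase median minus the mitotic median was 0.19 in the untreated comparison, -0.11 in dyW PBS against WT PBS, -0.11 in WT TD139 against WT PBS and 0.25 for the TD139 difference. The counts of calls among the 43 genes that moved were these: 1 for the genotype difference by DESeq2; 4 by DESeq2 and 1 each with no filter, on both RPKM scales, with the sex term and with only the groups compared, in WT PBS against untreated WT; and 2, 2 and 3 by DESeq2, log2(RPKM + 0.1) and log2(RPKM + 1) in dyW PBS against untreated dyW. The cause was not tested.

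Signs changed for genes that had not passed. On log2(RPKM + 0.1) and log2(RPKM + 1), untreated Mcm2 was 0.10 and 0.07, Tpx2 0.41 and 0.23, Mki67 0.19 and 0.10 in dyW TD139 against WT TD139 (Cdk1 0.01 on the second), and Mki67 0.23 and 0.09 for the genotype difference. With each library left out in turn, Tpx2 ran from -0.31 to 0.17 in the untreated comparison, and above 0 without untreated WT replicate 3 or dyW replicate 2 (0.01). Mki67 ran from -0.73 to 0.37 in dyW TD139 against dyW PBS (above 0 without dyW PBS replicate 1), from -0.43 to 0.25 in dyW TD139 against WT TD139, from -0.58 to 0.46 for the genotype difference, from -0.59 to 0.40 in WT PBS against untreated WT and from -0.77 to 0.28 in dyW PBS against untreated dyW. Cdk1 ran from -0.67 to 0.06 in dyW TD139 against WT TD139.

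With each library left out in turn, calls among the 43 genes ranged from 21 to 33 in the untreated comparison, from 0 to 1 for the genotype difference and from 1 to 2 in WT PBS against untreated WT, and stayed at 0 in the other 6. The S phase minus mitotic median ranged from -0.55 to 0.01 (untreated), -0.71 to -0.12 (PBS), 0.09 to 0.56 (TD139 in dyW), -0.56 to -0.26 (TD139 in WT), 0.13 to 0.46 (genotype under TD139), 0.41 to 0.96 (TD139 difference), -0.06 to 0.46 (genotype difference), -0.14 to 0.43 (WT PBS against untreated WT) and -0.24 to 0.19 (dyW PBS against untreated dyW). With all 18 libraries in the fit, 26 of the 33 untreated calls were made.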
